A study of Rattus norvegicus with 10 samples.

Results

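RCS cells are a rat chondrosarcoma line, a tumour-derived culture that keeps many traits of cartilage cells and lays down a cartilage-like matrix. The series set these cells beside RCS cells lacking ARSL, an arylsulfatase. The profile described here is that of the wild-type (WT) genotype alone, 5 of the 10 libraries in the series. The knockout columns were not used, though the authors' scaling and choice of rows cover a table of all 10 libraries and may depend on them. The WT cells received no treatment and grew in DMEM with 10% fetal bovine serum, 2 mM glutamine and antibiotics. Their RNA was isolated 48 h after seeding and sequenced by a digital mRNA-seq service. The labels call the 5 libraries biological replicates and state neither the days of culture nor whether the line is a clone, so the spread between libraries may be technical in part. All 10184 rows of the deposited table were ranked by their mean deposited value over the 5 WT libraries. Gene lists for matrix, transcription factors, the secretory pathway and metabolism were then read against that order.

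Cartilage matrix rests on thin fibrils of collagens II, IX and XI and on aggrecan, a large chondroitin sulfate proteoglycan that link protein fastens to hyaluronan. SOX9, with its partners SOX5 and SOX6, switches on the genes of this matrix. Making it loads the secretory pathway. Procollagen chains are hydroxylated and folded in the endoplasmic reticulum (ER), and the chains of proteoglycans are built and sulfated in the Golgi apparatus. In the body, chondrocytes live with little oxygen and are known for their use of glycolysis.

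Levels are given in RPM, the recovered reads of a row per 1000000 reads over all listed rows of the same library. The 5 libraries held 2118490 to 2591819 such reads, so that 1 read was worth 0.386 to 0.472 RPM. A row is called high when it is among the upper 10% of rows by mean deposited value, which are 1018 rows. It is called low when its mean is under 10 normalised reads, which applied to 1517 rows, 14.9% of the table. At the edge of the high class, Yipf4 at rank 1017 had a mean of 184 RPM, and Sp1, the nearest row outside it, had 185 RPM. No transcript lengths were used and the relation of reads to molecules was not tested, so an order between genes is an order of reads and not of molecules.

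Reads were spread unevenly over the rows. The high class held 64.1% ± 0.68 of the reads (SD, n = 5), the low class 0.389% ± 0.028, and in any library 395 to 467 rows sufficed for 50% of the reads. Rows without a gene symbol, 813 in all, took 12.2% to 12.9% of the reads, among them the row at rank 1, ENSRNOG00000043866, with 50535 ± 4861 RPM. Gc, which encodes the vitamin D-binding protein, was the sole row at the floor of 3 reads summed over the 5 libraries, with 2 reads.

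Genes that nearly all cells use set a limit on what a low level can show. Gapdh, a glycolytic enzyme, had 5, 4, 0, 4 and 6 reads in the 5 libraries, 1.61 RPM on average. Rps18, a ribosomal protein, had 2, 4, 0, 0 and 7 reads, so that its mean of 1.15 RPM was 0.622 without WT 5 and 1.91 without WT 3 and WT 4. The elongation factor gene Eef1a1 stood at 6.02 RPM (3.81 without WT 3 and WT 4) and Pkm, pyruvate kinase, at 2.26 RPM. Actb and Actg1, the cytoplasmic actins, had no row by symbol or synonym, and neither had 33 of 79 cytosolic ribosomal protein genes (41.8%), while another ribosomal protein gene, Rps16, reached 2428 RPM. A low level or a missing row in this table therefore does not show that the cells do not express a gene. The sources used here do not give how reads that match several places were counted, so genes with near-identical copies are uncertain. Genes without a row are named below as not analysed.

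The libraries WT 3 and WT 4 stood apart from the other WT libraries. Their deposited values correlated at r = 0.984 with each other across rows but at 0.954 to 0.964 with WT 1, WT 2 and WT 5, and they shared 96 of their 100 highest rows with each other but 78 to 80 with those 3. WT 1 and WT 2 were the closest pair, with r = 0.991 and 97 of 100 rows shared, yet differed by more than sampling noise (chi-square of 1.85 per degree of freedom). Rows and genes are not independent replicates, so these values are descriptions. Many genes below are given as highest or lowest in WT 3 and WT 4. The share of all rows for which this holds was not counted, so it is not shown to be particular to those genes. Without WT 3 and WT 4, the 10 highest rows were the same, as were 38 of the 40 highest and 945 of the 1018 high rows. In RNA from bulk cultures, fewer cells of a type and less RNA per cell cannot be told apart.

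**Figure D1:**
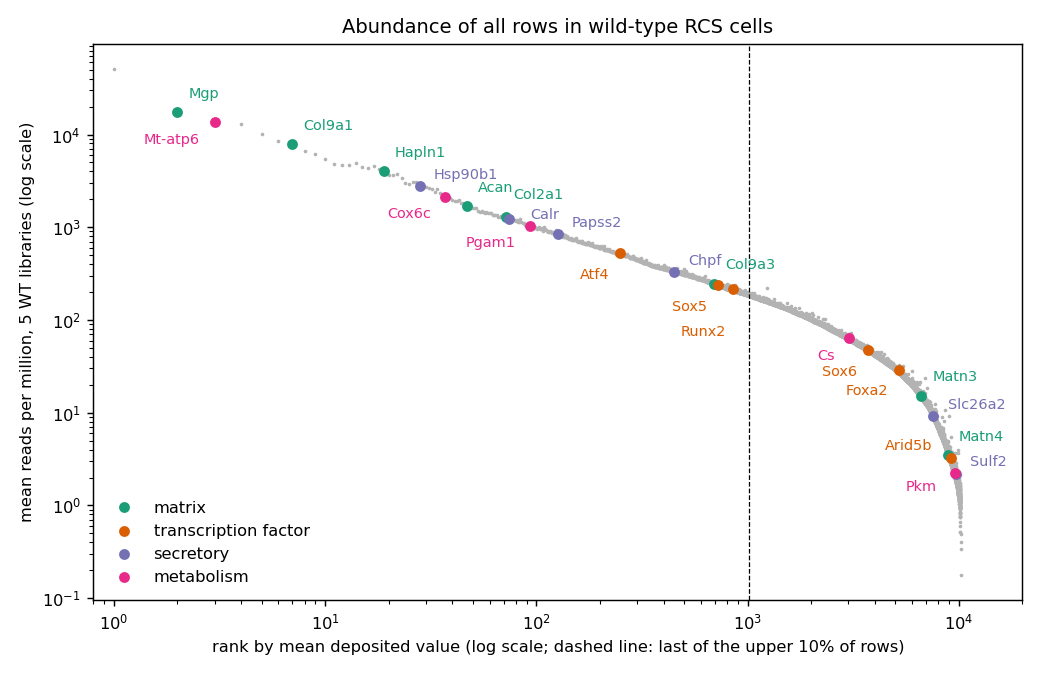
Mean RPM of each row over the 5 WT libraries (vertical axis, log scale) against its rank by mean deposited value (horizontal axis, log scale); grey points are all 10184 rows, coloured points are named genes of 4 categories and the dashed line marks the last of the upper 10% of rows. Mgp at rank 2 and Col9a1 at rank 7 lie near the top, Sox5 and Runx2 near the dashed line, and Matn4 and Pkm in the lower tail.

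Cartilage matrix genes and mitochondrially encoded genes headed the profile. Of the 40 highest rows, 10 belonged to the matrix lists and 8 carried the Mt- symbol of a mitochondrially encoded gene, 3 belonged to the secretory lists, 3 to the ribosomal and translation lists, 7 had no symbol, and 0 belonged to a transcription factor list. Mgp, which encodes matrix Gla protein, an inhibitor of calcification in cartilage and vessels, was at rank 2 in each of the 5 libraries. It had 13901, 14353, 20656, 20790.5 and 17622 RPM in WT 1 to WT 5, with the 2 highest values in WT 3 and WT 4 and the mean at 17465 ± 3304. Mt-atp6, a subunit of mitochondrial ATP synthase, had 13539 ± 1272 RPM and Mt-co1, a subunit of cytochrome oxidase, 10058 ± 2746 RPM. The row at rank 4, AY172581.9, is named after a sequence record, that of the rat mitochondrial genome, and not after a gene, and it is in no list. It had 12045, 11090.2, 15281, 17007 and 10063 RPM in WT 1 to WT 5, highest in WT 3 and WT 4. Hsp90ab1, a cytosolic chaperone, stood at rank 9 with 6196 ± 1386 RPM. Mfge8, a secreted glycoprotein that binds integrins, stood at rank 14 and Ptgds, the lipocalin-type prostaglandin D synthase, at rank 34. Both were higher in WT 3 and WT 4 than in the other libraries: Mfge8 had 3072, 3112, 7511, 7310.3 and 3779.7 RPM in WT 1 to WT 5, and the mean of Ptgds went from 2611 to 1711 RPM when WT 3 and WT 4 were left out.

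The matrix lists held 165 entries, of which 90 had a row, 32 were high and 13 low. Their rows took 6.84% ± 1.81 of the reads (SD, n = 5), and 5.53% without WT 3 and WT 4. High members made up 35.6% of the matrix rows, where the class holds 10% of all rows by its definition. Low members made up 14.4% of them, close to the 14.9% of all rows. By list, 7 of 9 rows of the cartilage collagens were high, 11 of 23 rows of the aggrecan network and related proteins, 1 of 5 rows of other collagens, 5 of 24 glycoproteins and basement membrane genes, 6 of 16 cell-surface proteoglycans and receptors, and 2 of 13 proteases and inhibitors.

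The chains of collagens II, IX and XI, which form the cartilage fibril, were in the high class, each of the 6 with a row. Col9a1, a chain of collagen IX, which coats the fibril, was the highest, at rank 7, with 6574, 6939, 9451, 9449 and 6799 RPM in WT 1 to WT 5. Col11a1, a chain of collagen XI, which sets fibril width, had 3156, 3010.1, 6589, 6446 and 3502 RPM. Col2a1, the single chain type of collagen II and the bulk of the cartilage fibril, had 1050.2, 1034, 1720.1, 1696 and 984 RPM, a mean of 1297 ± 376 at rank 72. In these 3 genes WT 3 and WT 4 lay above the other libraries, and the ranges did not overlap. The split of the libraries was seen in these same data and was not particular to the collagens. Over all high rows, the median difference in deposited value was 0.293 to 0.336 between the sets and 0.0626 to 0.115 within them. How many of all rows separate in this way was not counted. The reads fell in the same order in each of the 5 libraries, Col9a1 above Col11a1, Col9a2, Col2a1, Col11a2 and Col9a3. Below Col9a3 the order was less firm, since Col9a3 exceeded Col16a1 in 4 of 5 libraries.

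Within the collagen families the reads were far from even. Of all reads on collagens II, IX and XI, Col2a1 took 7.41% ± 0.29 (SD, n = 5) and Col9a1 45.8% ± 4.5. Of the collagen IX reads, Col9a1 took 73.6%, Col9a2 24.0% and Col9a3 2.35% ± 0.36, although the protein is built of 1 chain of each kind as the textbook heterotrimer. These shares are of reads and were not corrected for length, and their relation to molecules was not tested. Of the collagen VI chains, Col6a2 had 540.0 ± 174 RPM and Col6a3 61.4 RPM, while Col6a1 had no row and was not analysed here.

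The aggrecan network was led by its link protein. Hapln1, which fastens aggrecan to hyaluronan, had 3200.1, 3322, 5253, 5022 and 3398 RPM in WT 1 to WT 5, and Acan, which encodes the aggrecan core protein, had 1521, 1248, 2031, 2129 and 1542 RPM. Both were highest in WT 3 and WT 4. Prelp, a leucine-rich proteoglycan of cartilage, had 3713 ± 1388 RPM and Cnmd, the angiogenesis inhibitor chondromodulin, 3436 ± 1489 RPM. These neighbours in the order did not differ beyond their spread: Hapln1 exceeded Prelp in 3 of 5 libraries and Prelp exceeded Cnmd in 4 of 5. Matn1, the cartilage matrix protein matrilin-1, had 2056 ± 309.6 RPM, and Comp, a pentameric protein that binds collagen, 1006 ± 342 RPM. Ecrg4, a secreted peptide precursor, had 3113 RPM with all 5 libraries and 2040.1 without WT 3 and WT 4.

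**Figure D2:**
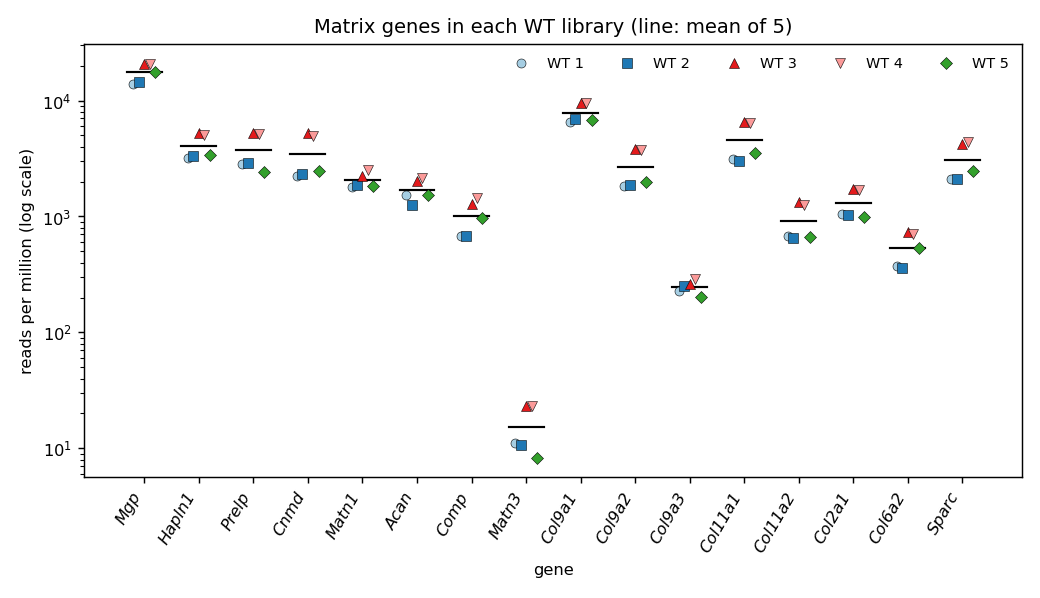
RPM (log scale) of 16 matrix genes in each WT library, with a line at the mean of the 5. WT 3 and WT 4 lie above the other libraries for most of these genes, for example 5203 and 4919 RPM against 2252 to 2470.2 for Cnmd, while Matn3 lies about 2 orders of magnitude below Matn1.

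Some textbook cartilage genes had few reads or no row. Against Matn1 at 2056 RPM, the matrilin gene Matn2 had a mean of 36.3 RPM. Matn3, also in the middle class, had 11.2, 10.7, 23.1, 23.0 and 8.33 RPM in WT 1 to WT 5, a mean of 15.3 (10.1 without WT 3 and WT 4), and Matn4 had 3.49 RPM. Chadl, a chondroadherin-like protein, had 3.42 RPM (1.46 without WT 3 and WT 4) and Crispld1 1.35 RPM. Snorc, Vcan, which encodes versican, and Prg4, which encodes lubricin, had no row, and neither had the small leucine-rich proteoglycan genes Dcn, Lum, Ogn, Omd and Aspn. Of the other collagens, 16 of 21 had no row, Col1a1, Col1a2, Col3a1 and Col10a1 among them. Those with a row below Col6a3 were Col5a3 at 11.9, Col5a2 at 9.83 and Col4a5 at 7.18 RPM.

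Outside the cartilage-specific lists, Sparc, a calcium-binding matrix glycoprotein, stood at rank 26 with 2092, 2092, 4187, 4374 and 2480.0 RPM in WT 1 to WT 5, highest in WT 3 and WT 4. Tgfbi, a matrix protein induced by TGF-beta, had 551 ± 54.7 RPM and Fn1, fibronectin, 515 ± 199 RPM. Thbs1, thrombospondin 1, had 104 to 416 RPM over the libraries, and its mean of 240.4 became 128 without WT 3 and WT 4, which took it out of the high class. At the cell surface, Sdc4 took 75.9% ± 3.6 of the syndecan reads, and its mean was 1413 ± 222 RPM. Gpc1, a glypican, had 968 ± 188 RPM and the collagen receptor Ddr2 352 ± 142 RPM. The integrin gene Itgb1 was high, at 358 ± 65.1 RPM. The integrin genes Itga1 and Itgav, the 2 lowest rows of the cell-surface list, were low, at 4.15 and 2.89 RPM (Itgav 1.86 without WT 3 and WT 4, and 1.86 without WT 4 alone). Among the proteases, the cathepsin genes Ctsl and Ctsb were high, at 580.5 ± 179 and 225 ± 105 RPM, though Ctsb was at 148 RPM and out of the high class without WT 3 and WT 4. Of the 13 rows for proteases and inhibitors 9 were in the middle class, led by Adam10 at 69.6 and Adam17 at 67.3 RPM. The 2 low rows were the gelatinase gene Mmp2 at 1.74 RPM and the aggrecanase-family gene Adamts1 at 1.47 RPM. Mmp3, Mmp9, Mmp13, Adamts5, Timp1 and Timp2 had no row.

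RefSeq promoter windows were read for the rows whose symbol matched, 7634 in all, each window covering 250 bases before and 50 bases after a transcript start. They come from another build than the one named for the reads and were matched by symbol, and they show a sequence feature that the ranking did not use, as a description without a test. The median number of CG dinucleotides per window was 22 over these rows, 24 in the high class and 18 in the low class. For the high cartilage collagen and cartilage matrix genes it was 10.5, over 12 of 18 genes with a window. Of the 12, 5 had fewer than 10 CG (41.7%, against 13.9% of rows). For members of the same lists that were not high it was 8.5, over 8 of 14, and 4 of the 8 had fewer than 10 CG. The low count was thus not particular to the high members. For the high ER chaperone genes it was 25, over 24 of 28. The 100 bases just before the start are printed for a cartilage collagen, the link protein, aggrecan and an ER chaperone, to show this range, on the GRCr8 build and 5′ to 3′ on the gene's strand, with each CG in capitals:
Col9a1 (chr9:34081264-34081363, plus strand): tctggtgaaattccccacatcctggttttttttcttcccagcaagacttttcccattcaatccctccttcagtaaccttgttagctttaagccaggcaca
Hapln1 (chr2:22366867-22366966, plus strand): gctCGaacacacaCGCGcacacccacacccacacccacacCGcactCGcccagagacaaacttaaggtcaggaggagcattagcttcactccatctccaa
Acan (chr1:142390851-142390950, plus strand): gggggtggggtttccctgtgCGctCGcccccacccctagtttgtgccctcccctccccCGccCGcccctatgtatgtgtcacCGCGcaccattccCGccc
Hspa5 (chr3:38452916-38453015, plus strand): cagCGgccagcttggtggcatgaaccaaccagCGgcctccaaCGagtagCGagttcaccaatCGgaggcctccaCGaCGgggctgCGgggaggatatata
The Col9a1 window held 0 CG in its 300 bases, the Hapln1 window 10, the Acan window 28 and the Hspa5 window 25, so cartilage genes fell at both ends of the range. The letters TATAAA, or TTTATA for the other strand, were in 6.14% of windows of these rows and in 8.60% of those in the high class. They were in 1 of the 12 windows of high cartilage genes and in 14.3% of all windows in the RefSeq table. Where a symbol had several starts the one listed earliest was used. Mgp, Col2a1, Prelp, Cnmd, Matn1 and Col9a3 had no window.

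Transcription factor genes had fewer reads than the matrix genes, with a median of 29.5 RPM per row against 64.1, and 28.4 over all rows. Of 153 entries 92 had a row, 9 of them high (9.78%, close to the 10% of all rows) and 14 low (15.2%, close to the 14.9%). Their rows together took 0.622% ± 0.045 of the reads (SD, n = 5). Their median rank was 4971 of 10184. The lists also hold other regulators: Wwp2, a ubiquitin ligase gene, counts among the 9 high and Ctnnb1, beta-catenin, among the 14 low. Highest were Nfe2l1, a regulator of the proteasome and redox genes, with 564 ± 81.2 RPM at rank 217, and Atf4, the effector of the integrated stress response, with 521 ± 109.7 RPM. Srebf2, the regulator of cholesterol synthesis, had 278 ± 77.1 RPM and Stat3 209 ± 49.8 RPM.

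Among the chondrogenic regulators, Sox5 was high and Sox6 was in the middle class. Sox5 had 249, 248, 225, 218 and 244 RPM in WT 1 to WT 5 with the lowest values in WT 3 and WT 4, and Sox6 had 42.8, 39.9, 54.3, 58.7 and 39.8 RPM, with no overlap between the genes. Sox9, the master regulator of the lineage, had no row and was not analysed here, and Sox8, its close relative, had 159.9 ± 14.7 RPM. Of the reads on Sox5, Sox6 and Sox8, these took 53.4%, 10.6% and 36.0%. Wwp2, a ubiquitin ligase gene known as a target and partner of SOX9, had 365, 347, 639, 603 and 369 RPM, highest in WT 3 and WT 4. Zbtb20, a regulator of terminal cartilage differentiation, had 202 ± 33.7 RPM and left the high class without WT 3 and WT 4 at 180.1. At the low end were Foxa3 at 3.48 RPM (1.59 without WT 3 and WT 4) and Arid5b at 3.28 RPM.

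Regulators of hypertrophy and bone had reads as well. Runx2, which drives chondrocyte hypertrophy and osteoblast fate, had 159, 175, 321, 279.8 and 144 RPM in WT 1 to WT 5. WT 3 and WT 4 lay above the others, and without them its mean went from 216 to 159 RPM and its rank from 856 to 1264, outside the high class. Runx2 took 89.9% ± 1.2 of the reads on the 3 Runx genes, and Runx1 had 2.37 RPM. Mef2c, another driver of hypertrophy, had 174 ± 28.2 RPM and Dlx5 86.8 ± 10.8 RPM. Sp7, the osteoblast regulator osterix, had no row, as had Msx1 and Msx2.

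Of the limb and axial patterning regulators, Shox2, a homeobox gene of limb cartilage, was the sole high member, with 204, 204, 249, 231 and 198 RPM in WT 1 to WT 5. Gli1, a target and effector of hedgehog signalling, had 80.1 ± 4.19 RPM and Gli2 2.46, while Gli3 had no row. Ptch1, the hedgehog receptor and itself a hedgehog target, was high, with 524, 538, 757, 824 and 476 RPM, and took 82.2% ± 2.8 of the reads on Ptch1, Smo, Gli1 and Gli2. The ligand genes Ihh and Shh had no row. Hoxc10 had 29.5 ± 4.65 RPM and Hoxc8 1.48, and 12 of the HOX entries had no row. In the signalling list, Smad4, the common partner of the TGF-beta and BMP pathways, had 1.51 RPM and Ctnnb1, beta-catenin, 1.87 RPM (2.84 without WT 3 and WT 4), levels that fall in the range where the limit set by Gapdh and Rps18 applies.

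**Figure D3:**
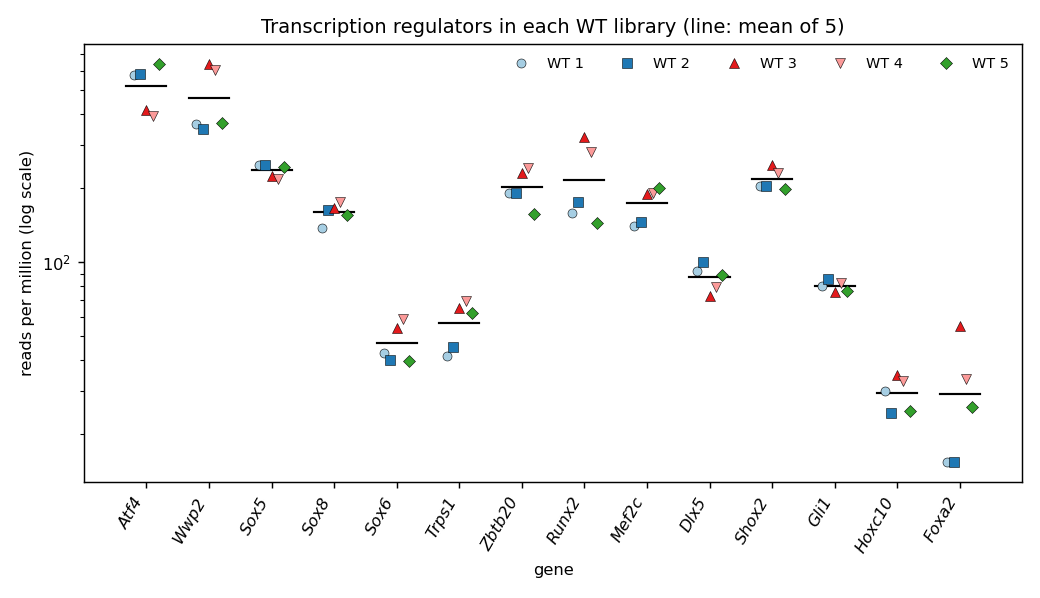
RPM (log scale) of 14 transcription regulators in each WT library, with a line at the mean of the 5. Atf4 is lowest in WT 3 and WT 4 (416 and 393 RPM), Wwp2 and Runx2 are highest there, and Sox5 and Gli1 vary little between libraries.

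The secretory pathway supplied many high rows. Of 269 entries 193 had a row, 63 were high (32.6%) and 13 low, with 4.32% ± 0.46 of the reads (SD, n = 5). The list of ER entry and folding genes held the most of these, with 28 of 41 rows high and 0 low and a median rank of 587. Hsp90b1 and Hspa5, the ER chaperones GRP94 and BiP, had 2765 ± 255 and 2190.1 ± 215 RPM. Hspa5 had 2058, 2220.4, 2002, 2125 and 2545 RPM in WT 1 to WT 5 and was highest in WT 5. P4hb, protein disulfide isomerase and a subunit of prolyl 4-hydroxylase, had 1375, 1394, 2729, 2448 and 1684 RPM, highest in WT 3 and WT 4, and Calr, the lectin chaperone calreticulin, 1214 ± 112 RPM. The lowest members were Stt3b and Srp72, at 29.0 and 27.3 RPM.

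Collagen-specific folding factors were led by Serpinh1, the collagen chaperone HSP47, at rank 35. It had 1958, 1927, 2787, 2779 and 2295 RPM in WT 1 to WT 5, again highest in WT 3 and WT 4. P3h4, a partner of the collagen prolyl and lysyl hydroxylases, had 902 ± 213 RPM and PCOLCE2, an enhancer of procollagen processing, 842 ± 346 RPM. Ppib, the prolyl isomerase cyclophilin B, had 680.1 ± 89.8 RPM. Of the list's 34 rows 9 were high. The COPII coat genes Sec23a and Sec24d, which package cargo that leaves the ER, were low, at 2.27 and 3.17 RPM, and Sec24a had no row. The other 5 coat genes with a row, of which Sec13 was the highest at 155 and Sec24b the lowest at 22.6 RPM, were in the middle class. Lox, which cross-links collagen, had no row. In the Golgi traffic list 13 of 44 rows were high (29.5%) and 0 low. They were led by Tmed9 at 738 ± 117, Arf4 at 734 ± 54.1 and Kdelr1 at 509 ± 44.8 RPM.

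Of 27 rows for genes that build the sugar chains of proteoglycans, 7 were high (25.9%, where 10% of all rows are), 18 were in the middle and 2 were low. Fam20b, a kinase that phosphorylates the linker xylose, had 462, 468, 394, 405 and 464 RPM in WT 1 to WT 5, lowest in WT 3 and WT 4. Chpf and Csgalnact1, which extend and start chondroitin chains, had 329.6 ± 22.5 and 318 ± 23.4 RPM. Xylt1, which starts the chain on the core protein, had no row. The enzymes of heparan sulfate ranged from the high to the low class. Extl1 had 299 ± 88.0 RPM and Ext2 209 ± 60.6 RPM, both high, though Ext2 was out of the high class without WT 3 and WT 4. Ndst1 and Extl3 were low, at 1.93 and 0.826 RPM (Extl3 0.416 without WT 4).

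The sulfation list was led by a gene whose product makes the sulfate donor. Papss2, the PAPS synthase whose loss disturbs the skeleton, had 904, 959, 757, 727 and 858 RPM in WT 1 to WT 5 and was lowest in WT 3 and WT 4. It took 80.3% ± 1.4 of the reads on Papss1 and Papss2. Slc35b2, a transporter of that donor into the Golgi, had 268 ± 20.8 RPM. Chst11, a chondroitin 4-sulfotransferase, had 183 ± 14.5 RPM at rank 1023, just outside the high class. Slc26a2, the sulfate importer of the plasma membrane whose defects cause chondrodysplasias, had 7.33, 5.15, 12.3, 11.1 and 9.72 RPM, 19, 12, 26, 27 and 21 reads in the 5 libraries. Among the sulfatases, Sulf2 was low at 2.21 RPM. Its mean without WT 2 was lower by more than 1.5 times, at 1.47 RPM. Arsl itself, the gene studied in the series, had no row and was not analysed here, nor were Sulf1, Sts, Ids and Sgsh. Of the list's 25 rows 3 were high (12%, near the 10% of all rows) and 6 low (24%, against 14.9% of all rows).

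Secreted growth factors often had no row. Of 62 entries 40 had none (64.5%), while over all lists 779 of 1174 genes had a row. Of the 22 growth factor rows 3 were high (13.6%) and 2 low (9.09%), where 10% and 14.9% of all rows are. The high members were Grn, progranulin, with 600.5 ± 168 RPM, Tgfb2 with 467 ± 162 RPM and Gdf10, a distant BMP relative, with 456 ± 144 RPM. In each of these, WT 3 and WT 4 were the highest libraries. Tgfb1 had 2.54 RPM (1.55 without WT 3 and WT 4) and Il11 1.70 RPM (0.849 without WT 3 and WT 4, 0.991 without WT 4 alone), and Bmp2, Bmp4, Fgf18, Igf1, Pthlh and Nppc had no row.

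Metabolic genes held 10.0% ± 1.09 of the reads (SD, n = 5), of which the mitochondrially encoded genes with an Mt- symbol held 5.62% ± 0.995. With the 8 rows named after the mitochondrial genome record counted too, AY172581.9 among them, this share was 6.94% ± 0.717, with 6.13% and 6.18% in WT 3 and WT 4 against 7.43% to 7.48% in the others, and that of all metabolic genes was 11.4%. This count was chosen after the values were seen. Most of the reads it added were of AY172581.9, whose gene is not given. Rows without a symbol, that at rank 1 among them, are in no list, so the mitochondrial share may be incomplete. Of 272 entries 215 had a row, 84 were high (39.1%, where 10% of all rows are) and 9 low (4.19%, against 14.9%). The nuclear-encoded genes of oxidative phosphorylation held 2.09% ± 0.17, and 31 of their 52 rows were high (59.6%) and 0 low. Cox6c, a subunit of cytochrome oxidase, led these with 2135 ± 319.7 RPM at rank 37, and Atp5f1b, a subunit of ATP synthase, had 1358 ± 211 RPM. Mt-co1 had 11855, 11864, 7253, 6876 and 12442 RPM in WT 1 to WT 5, lowest in WT 3 and WT 4, the reverse of the order seen for the cartilage collagens. Mt-nd4l and Mt-nd6 were the lowest genes with an Mt- symbol, at 168 and 63.2 RPM, and Mt-nd4 had no row.

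**Figure D4:**
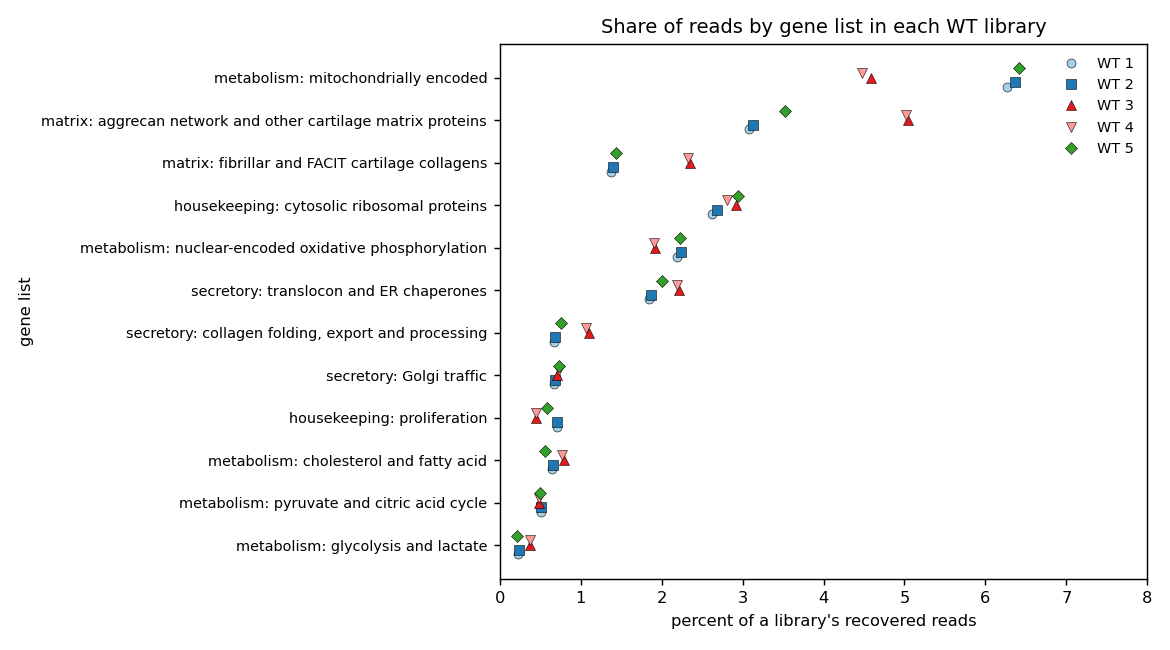
Percent of each WT library's recovered reads held by 12 gene lists. WT 3 and WT 4 have 4.59% and 4.47% of their reads on mitochondrially encoded genes with an Mt- symbol against 6.26% to 6.41% in the others, and 2.35% and 2.32% on the cartilage collagens against 1.38% to 1.44%.

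Of 21 rows of the glycolysis list 13 were in the middle class, 3 were high (14.3%, where 10% of all rows are) and 5 were low (23.8%, against 14.9% of all rows). Pgam1, phosphoglycerate mutase, had 958, 926, 1306, 1220.2 and 808 RPM in WT 1 to WT 5, Aldoa, aldolase A, had 421, 436, 919, 931 and 464 RPM and Pgk1, phosphoglycerate kinase, 275, 269.7, 504, 532 and 285 RPM. In all 3, WT 3 and WT 4 were the highest. Gapdh, Pkm, Ldhb, Eno3 and Hk1 were low, and Hk1 had 2, 1, 0, 11 and 0 reads in the 5 libraries, 1.14 RPM on average, 0.4 without WT 3 and WT 4 and 0.3 without WT 4 alone. Ldha, Tpi1 and Slc2a3 had no row. In the citric acid cycle and its supply, 10 of 35 rows were high (28.6%) and 0 low. They were led by Got2, mitochondrial aspartate aminotransferase, at 658 ± 65.2, and Mdh2, malate dehydrogenase, at 392 ± 28.5 RPM. The lowest there were Dlat, a subunit of pyruvate dehydrogenase, at 10.9 and Pc, pyruvate carboxylase, at 11.3 RPM.

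Lipid and redox genes also had high members. Scd2, a stearoyl-CoA desaturase, had 977, 933, 2011, 1906 and 673 RPM in WT 1 to WT 5, ranging from the lowest value in WT 5 to the highest in WT 3, with a mean of 1300.0 and of 861 without WT 3 and WT 4. It took 89.2% ± 2.2 of the reads on Scd and Scd2. Cyp51, an enzyme of cholesterol synthesis, had 974 ± 127 RPM and Acly, which makes cytosolic acetyl-CoA, 500.4 ± 72.9 RPM. Acaca, which starts fatty acid synthesis, had 1.43 RPM (2.24 without WT 3 and WT 4). Sod1, superoxide dismutase, had 1275 ± 234 RPM and the glutathione transferase gene Gstp1 439 ± 196 RPM, while Slc7a11, the cystine importer, had 6.47 RPM. In the pentose phosphate, serine and nucleotide list 10 of 31 rows were high (32.3%, where 10% of all rows are). Among them were Taldo1, transaldolase, at 491 ± 27.6 RPM and Mthfd2, a mitochondrial folate enzyme, at 445 ± 40.1 RPM.

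Genes of DNA replication and the cell cycle were among the high rows. Of 32 rows of the proliferation list 11 were high and 0 low. Top2a, DNA topoisomerase II, had 1617, 1577, 892, 1055 and 1153 RPM in WT 1 to WT 5, and Pcna, the replication clamp, had 463, 464, 244, 202 and 399.6 RPM. In both, WT 3 and WT 4 were the lowest libraries. Ccnd3 took 92.2% ± 2.5 of the reads on Ccnd1 and Ccnd3, with 484 ± 23.5 RPM, and Ccnd2 had no row.

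Of 27 rows for growth factor and hormone receptors, 3 were high (11.1%) and 4 low (14.8%), shares near the 10% and 14.9% of all rows. Besides Ptch1, Igf2r, the mannose 6-phosphate receptor, had 463 RPM (293 without WT 3 and WT 4), and Pth1r, the receptor of parathyroid hormone-related protein, had 209, 246, 256, 216 and 255 RPM in WT 1 to WT 5. Notch2 had 2.21 RPM and Pdgfra 1.71 RPM (0.87 without WT 3 and WT 4, 0.961 without WT 3 alone). Egfr, Tgfbr1 and Bmpr1b had no row.

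**Figure D5:**
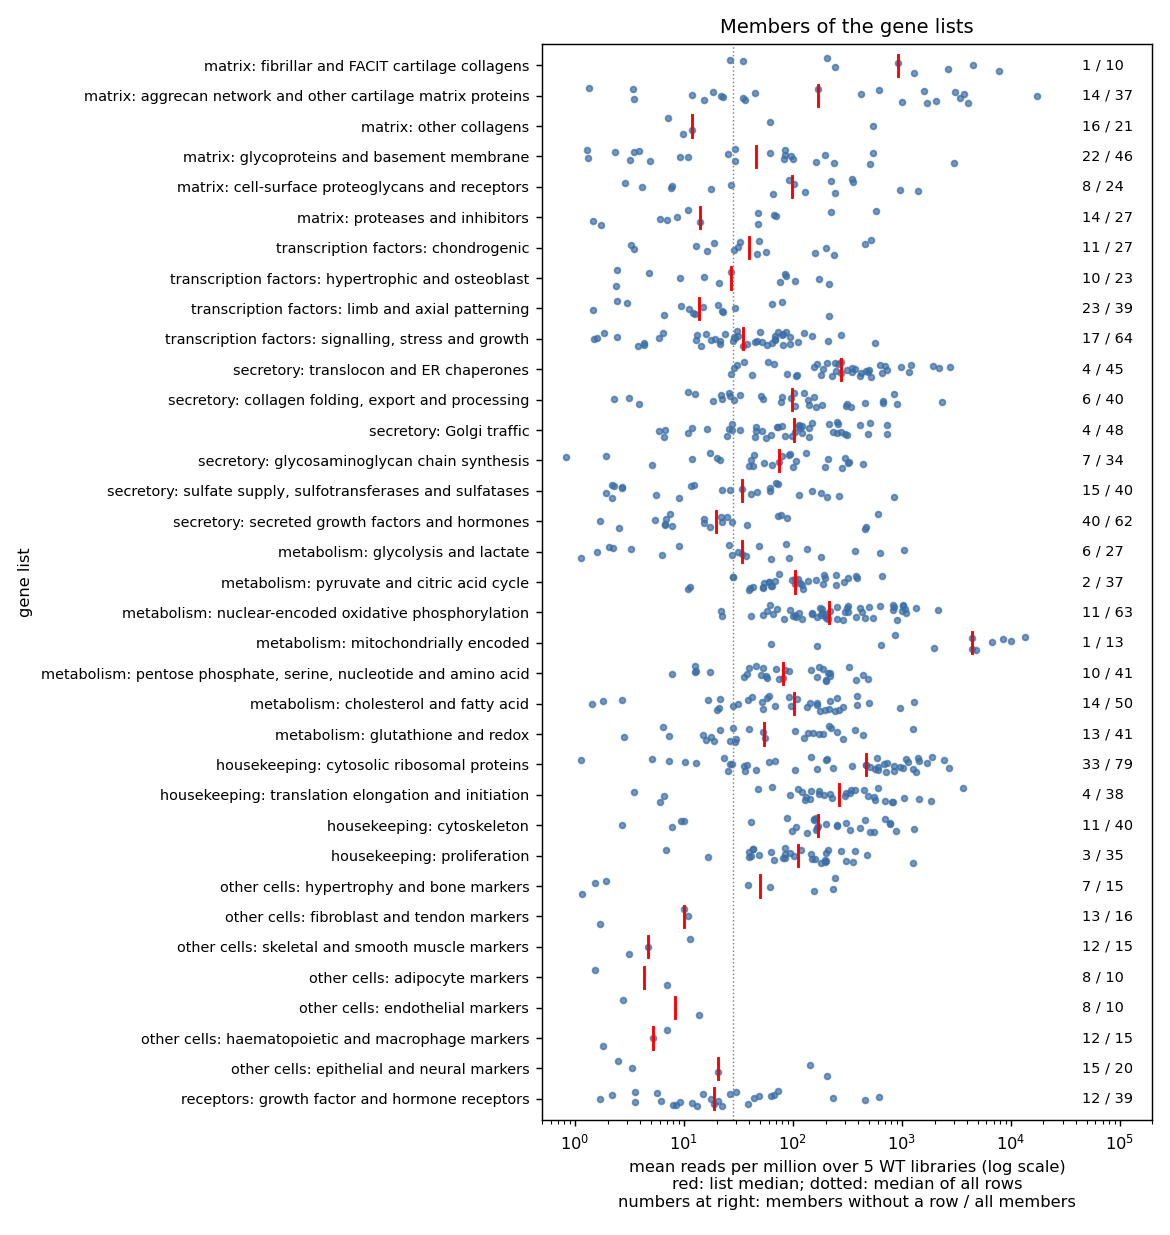
Mean RPM over the 5 WT libraries (log scale) of each member with a row, by gene list, with the list's median in red, the median of all rows dotted and, at the right, the members without a row over all members. The mitochondrially encoded list has the highest median, and the lists for muscle, fat and blood cells have the lowest, with 12 of 15, 8 of 10 and 12 of 15 members without a row.

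The label of a chondrocyte-like line was checked against its markers. Of 14 chondrocyte markers 12 had a row, 10 of them high, and their summed level was 19234 to 32031 RPM over the libraries. Sox9 and Snorc had no row. Of 7 hypertrophic markers 5 had a row, with 477 to 768 RPM in sum, Col10a1 and Ihh having none. Of 8 fibroblast markers 2 had a row, Thy1 and Pdgfra, with 5.40 to 21.2 RPM in sum, and Col1a1, Col1a2, Col3a1, Dcn, Lum and Postn had none. Summed levels were 135 to 182 RPM for 2 of 5 osteoblast markers with a row, 5.15 to 11.8 RPM for 2 of 6 muscle markers, 1.85 to 13.2 RPM for 2 of 4 adipocyte markers, 6.01 to 19.4 RPM for 1 of 4 endothelial markers and 5.15 to 8.50 RPM for 2 of 5 blood and macrophage markers. The osteoblast sum was nearly all Alpl, alkaline phosphatase, at 155 ± 20.4 RPM, since Ibsp had 1.16 RPM. Of the epithelial markers Krt8, a keratin of simple epithelia, was high in every WT library, with 196, 224, 202, 185 and 223 RPM, while Krt18, Cdh1 and Epcam had no row. Panx3, a channel of prehypertrophic chondrocytes and osteoblasts, had 242 ± 49.7 RPM. Markers of other cell types had no row in 75 of 101 entries (74.3%), and matrix genes in 75 of 165 (45.5%), so the sums cover the markers with a row only. Whether other cells contributed to the profile was not tested.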

How the data were processed

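The profile uses the 5 WT columns of 1 deposited table of 10184 rows; the 5 knockout columns were not used. The authors deposited values on a variance-stabilised log2-like scale, normalised for library size, per the name of the deposited table and its values. RNA was isolated with an RNeasy kit and sequenced as digital mRNA-seq, per the labels' protocols. The submitters' processing notes name bcl2fastq, STAR 2.7.11a, HTSeq and the rat build rn6, with no order or role. Not given in the sources used here were the strand setting, the row filter and the tool behind the log2 values.

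The lowest value, 4.42, is that of a count of 0. The closed form of the transformation was inverted, which put each WT value on a whole-read step within 1.6e-09 reads and gave 2118490 to 2591819 reads per library. Normalised reads are recovered reads divided by a library's size factor, and RPM are recovered reads per 1000000 listed reads. Tested on simulated data made with the same closed form, the inversion recovered 100% of the counts in 5 simulations of 10184 genes. This checks the arithmetic only and does not show that the deposited values were made with that form. The read totals cover listed rows only. The floor of 3 reads and the counting errors given cover counting error only.

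Libraries were compared in pairs by Pearson's r and by a chi-square per degree of freedom, taken where the pair summed to 20 reads or more. The closest pair, WT 1 and WT 2, had 1.85, above the 1 of sampling noise, so no pair was taken for 1 library deposited again. That they are biological replicates rests on the labels. No groups were compared, so no test was made. The 35 lists held 1191 entries for 1174 genes, of which 779 had a row, 2 of them by synonym. Where a symbol had several rows, the highest was used. Promoter windows came from RefSeq on GRCr8, by symbol, with the first listed start where a gene had several. The members and lists were chosen with earlier results of these data known. Named genes are the 40 highest rows, the 4 highest and 2 lowest members of each list, the chondrocyte markers and members at the floor or without a row. Outside this rule, Yipf4, Sp1, Gc, Ccnd1, Smo, Scd, Col16a1, Matn2, Matn4, Ext2, Sec13, Sec24b, Sox8, Pkm, Ldhb, Eno3 and Slc26a2, and Cs, Trps1 and Foxa2 in plots, were chosen after their values were seen. Some genes that the rule names are not reported here. Alternatives were other ranks, class limits, denominators and left-out libraries. Python 3.11.15, numpy 2.4.6, pandas 2.3.3, scipy 1.17.1 and matplotlib 3.10.9 were used.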

Additional observations from a re-analysis of the deposited data

Results flagged for a closer look

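Among the levels of named genes and the read shares of lists, 247 quantities were examined for a library lying far from the other 4. Past the limit were 4 (1.62%), where chance gives about 1 in 20. The check finds 1 library apart from the rest, so WT 3 and WT 4, where they lie together, hide each other. Thbs1, with 402 and 416 RPM in WT 3 and WT 4 against 104 to 171 RPM elsewhere, was not past the limit. The low share therefore does not show that the libraries are alike. ENSRNOG00000062158, a row without a symbol at rank 10, had 7552 RPM in WT 5 against 4609 to 5100 RPM in the other libraries. Rplp0, a ribosomal stalk protein gene, had 1832 RPM in WT 1 against 1908 to 1926 RPM. Map2, which encodes a microtubule-associated protein, had 170.2 RPM in WT 1 against 131 to 142 RPM. Hk1, hexokinase 1, had 4.52 RPM in WT 4 against 0 to 0.772 RPM, a total of 14 reads over the 5 libraries. The cause of these 4 differences was not tested.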

How the results depend on the processing

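With each library left out in turn, or WT 3 and WT 4 together, the counts of high and low genes in the 4 categories stayed within 1.5 times those reported. The shares of reads stayed within 1 SD, a limit that leaving out these libraries could not have passed with 5 in all. Without WT 3 and WT 4 the share of matrix genes went from 6.84% to 5.53% and that of transcription factors from 0.622% to 0.590%. That of secretory genes went from 4.32% to 3.99% and that of metabolic genes from 10.0% to 10.8%. Ranked by mean RPM or by the median, 1008 and 977 of the 1018 highest rows were shared with the reported order. With 1 library left out, 10 of the 10 highest rows, 39 to 40 of the 40 highest and 990 to 999 of the 1018 highest were shared, and the counts of high genes were 29 to 32 for matrix, 8 to 9 for transcription factors, 62 to 65 for secretory and 82 to 86 for metabolic genes. Under the same change the reads on matrix genes ranged from 6.35% to 7.23%, on transcription factors from 0.610% to 0.633%, on secretory genes from 4.20% to 4.43% and on metabolic genes from 9.81% to 10.35%. The class counts follow their limits by construction. With the upper 5% of rows called high, 3 transcription factor, 40 secretory and 50 metabolic genes were high, and with the upper 20%, 15 transcription factors. With low set under 5 normalised reads, 5 matrix, 4 transcription factor, 5 secretory and 5 metabolic genes were low, and under 20, 20 matrix and 24 secretory genes. Without rows that carry no symbol in the denominator, the shares were 0.71% for transcription factors, 4.94% for secretory and 11.5% for metabolic genes, and without mitochondrially encoded rows the metabolic share was 4.68%. With the 8 rows named after the mitochondrial genome record added, an alternative chosen after the values were seen, it was 11.4%. Of 212 named genes, 22 had a mean differing by over 1.5 times without WT 3 and WT 4. No paired analysis was possible because no groups were compared. The alternative per kilobase of length was not run, since no transcript lengths were used here. At this depth 3 reads are worth 1.16 to 1.42 RPM, so levels near that of the low class are limited by counting error, with a median coefficient of variation of 58.3% in the low class, where counting alone gives 41.5%, and of 14.2% against 3.73% in the high class.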

Other observations

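Genes of the translation apparatus and the cytoskeleton stood high in the WT profile. Of 34 rows of the list for translation elongation and initiation, 20 were high and 1 was low. Pabpc1, the poly(A)-binding protein that coats the tail of mRNA, had 3986, 3913, 3382, 3488 and 3389 RPM in WT 1 to WT 5, a mean of 3632 ± 294 (SD, n = 5) and rank 20. Eef2, the elongation factor that moves the ribosome along mRNA, had 1844 ± 175 RPM, and the initiation factor genes Eif2s2 and Eif3a had 1451 ± 279.9 and 1042 ± 167 RPM. At the other end of that list Eef1a1, an elongation factor gene, had 9, 11, 23, 19 and 7 reads in the 5 libraries, and Eif4g1, a scaffold of initiation, had a mean of 3.51 RPM.

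Of 29 rows of the cytoskeleton list, 14 were high and 1 was low. Myl6, a non-muscle myosin light chain, led it with 1269, 1309.9, 1253, 1333 and 1278 RPM in WT 1 to WT 5 and a mean of 1289 ± 32.3 (SD, n = 5). Vim, the intermediate filament protein vimentin of mesenchymal cells, had 881 ± 121 RPM. Anxa2, a calcium-dependent membrane-binding protein, had 786 ± 98.8 RPM, and Actn4, which crosslinks actin filaments, had 775 ± 32.5 RPM. Tpm4, a tropomyosin in the middle class, had a mean of 7.87 RPM. Actb, Actg1, Tuba1a, Tuba1b and Tmsb4x are among the 11 members that had no row by symbol or synonym and were not analysed here.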
